A study of Mus musculus with 1753 samples.

Results

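The 10 transcripts described here, H19, Mest, Plagl1, Nespas, Dlk1, Meg3, Peg3, Cdkn1c, Grb10 and Ndn, are imprinted genes of the mouse measured in single stromal cells of hindlimb skeletal muscle. They were chosen by their levels in 60 cells of cluster 4, the paramysial cells, in these same data, so their contrast between paramysial cells and other cells is a description and was not tested. All 10 were found among the 46517 genes of the table, and all 10 averaged at least 1 scaled count over paramysial and endomysial cells. A scaled count is a read count set to 500000 gene counts per cell.

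The series held 1753 cells that had been sorted into 8 plates, amplified with the full-length Smart-seq2 method and assigned by the authors to 10 clusters. Clusters 1, 3, 5, 6 and 8 are endomysial fibroblasts (1116 cells), which lie between muscle fibres, clusters 2 and 9 are perimysial cells (328 cells) of the fascia around fibre bundles, cluster 7 is mural cells (187 cells) of vessel walls, and cluster 10 has no class name here (62 cells). All cells came from adult male mice aged 10 to 20 weeks on a C57Bl6/J background, with 5 strain labels: C57BL6, PdgfrbGFP, Acta2GFP, Cspg4dsRED and PdgfraGFP - PdgfrbGFP pool, called the pool below. C57BL6 carries no reporter in its label, and the other labels name fluorescent reporters driven from Pdgfrb, Acta2, Cspg4 or, in the pool, Pdgfra and Pdgfrb. Per the study's methods, the soleus muscles of a Pdgfra H2BGFP mouse and a PdgfrbGFP mouse were pooled once before dissociation, so the animals within the pool cannot be told apart. The strain label is the replicate below, because the labels tie cells to no single animal, and the reporter, the animals and the plate of a strain cannot be told apart.

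The paramysial cells were spread unevenly. Of the 60 cells, 46 came from the pool, 6 from Acta2GFP, 4 from PdgfrbGFP, 3 from C57BL6 and 1 from Cspg4dsRED. Within the pool, 45 came from its soleus plate and 1 from its gastrocnemius plate, and 3 of the 4 PdgfrbGFP cells were soleus cells of another plate. The soleus is a slow postural muscle that lies beside the larger gastrocnemius in the calf. In the pool each muscle had a plate of its own, so muscle and plate cannot be told apart there. The soleus plate of the pool held 181 cells, of which 45 were paramysial, 16 perimysial, 7 of cluster 10, 5 mural and the rest endomysial.

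An imprinted gene is read mainly from the copy inherited from the mother or from the father, because the egg and the sperm mark its control regions with different DNA methylation. Many imprinted genes regulate growth, are highly expressed in the embryo and are turned down in most tissues after birth. They lie in clusters that share a control region, so neighbours such as H19 and Igf2, or Dlk1 and Meg3, are commonly read from opposite parental copies. The counts here do not separate the parental copies.

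The members lie on 6 chromosomes of the GRCm38 build. H19 (chromosome 7, 142575529 to 142578143, minus strand) and Cdkn1c (chromosome 7, 143458339 to 143461050, minus strand) are 880196 bases apart. Dlk1 (chromosome 12, 109452823 to 109463336, plus strand) and Meg3 (chromosome 12, 109541001 to 109571726, plus strand) are 77665 bases apart. Peg3 (6703892 to 6730431, minus strand) and Ndn (62346569 to 62350262, plus strand) lie elsewhere on chromosome 7. Mest (chromosome 6, 30723547 to 30748465, plus strand), Plagl1 (chromosome 10, 13060504 to 13131694, plus strand), Grb10 (chromosome 11, 11930508 to 12038683, minus strand) and Nespas (chromosome 2, 174281237 to 174295436, minus strand) have chromosomes of their own. The exons of Nespas share 31.4% of their bases with Gnas on the opposite strand, and those of Mest share 23.1% with Copg2 and those of Cdkn1c 30.7% with the antisense gene Gm44732. The protocol does not mark strand, so reads from the shared bases cannot be told apart.

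H19, Mest and Meg3 hold microRNA genes. The mature sequences from H19 and Mest are shown as examples of what these host RNAs contain, and those in Meg3 exons, miR-1906 and both arms of miR-770, are only named. Small RNAs themselves were not measured. The sequences are from RefSeq (GRCm38.p6), 5′ to 3′, and the capitals mark the seed, bases 2 to 8. Both miR-675 arms lie in an H19 exon (chromosome 7, from 142577078 to 142577133, minus strand), and both miR-335 arms lie in a Mest intron (chromosome 6, from 30741314 to 30741375, plus strand). The 4 seeds differ.
miR-675-5p: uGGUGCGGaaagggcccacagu
miR-675-3p: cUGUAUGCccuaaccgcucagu
miR-335-5p: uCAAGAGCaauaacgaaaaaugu
miR-335-3p: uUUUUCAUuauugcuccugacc

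Because Plagl1 encodes a zinc finger factor known to bind the letters GGGGCCCC and to act on other imprinted genes, the 250 bases before each listed start were searched for that motif on both strands, beside the TATAAA box. The RefSeq table matched 7 of the 10 members with 11 starts and had no entry for H19, Nespas and Cdkn1c. The motif GGGGCCCC was found before 1 of the 11 member starts, that of Peg3, and before 0.889% of all 32851 starts. TATAAA was found before 1 member start, that of Meg3, on both strands in overlapping letters, and before 12.4% of all starts. The 2 windows are printed with the motif letters in capitals, for Peg3 at chr7:6730420-6730669 on the minus strand and for Meg3 at chr12:109540746-109540995 on the plus strand, and a match is a description of the letters only.
Peg3: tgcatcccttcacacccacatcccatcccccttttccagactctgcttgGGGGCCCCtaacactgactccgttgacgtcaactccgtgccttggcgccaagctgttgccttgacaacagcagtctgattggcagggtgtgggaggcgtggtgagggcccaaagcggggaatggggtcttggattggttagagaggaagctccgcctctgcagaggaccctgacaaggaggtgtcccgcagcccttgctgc
Meg3: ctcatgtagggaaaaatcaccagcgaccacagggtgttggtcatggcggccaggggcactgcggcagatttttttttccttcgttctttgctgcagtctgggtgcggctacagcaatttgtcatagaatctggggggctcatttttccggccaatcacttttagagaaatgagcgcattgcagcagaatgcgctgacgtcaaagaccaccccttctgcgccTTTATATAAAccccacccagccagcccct

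Paramysial cells were deeply sequenced on the soleus plate of the pool. Their median was 665294 counts on that plate and 216895 in the 15 paramysial cells of other plates, and the endomysial cells of the same soleus plate had a median of 478544. The class name was checked against its markers Postn, Thbs4, C1qtnf3, Cthrc1 and Col12a1. Postn reached 100 scaled counts in 45 of 45 paramysial cells of the soleus plate and in 13 of the 15 others, against 24.1% of the endomysial cells of the soleus plate. Thbs4 did so in 44 of 45, 15 of 15 and 38.9% of these groups. The summed level of the 5 genes had medians of 4725, 6043 and 215 scaled counts in the 3 groups, so the paramysial cells of both kinds of plate carried the class markers. In perimysial cells of all plates the median was 4838, so this sum does not separate paramysial from perimysial cells. The perimysial markers Thbs1, Thbs4, Col11a1, Tnmd and Scx summed to medians of 1679 and 2744 in paramysial cells of the soleus and other plates. In perimysial cells the median of that sum was 6450. Of 7 satellite and myogenic markers, none reached 100 scaled counts in a paramysial cell, and Pax7, Myf5, Myod1, Myog and Cdh15 were at 0 in all 60. No endothelial, Schwann or cell cycle marker reached that level in a paramysial cell either, and of the immune markers Csf1r did in 1 cell. Fibre genes did reach it on the soleus plate: Acta1 in 15 of 45 paramysial cells, and Ckm, Tnnt3 and Myl1 in some. The summed level of 8 fibre genes in these cells ran from 0 to 6680. Its median was 63.3 scaled counts, against 8.97 in the endomysial cells of the plate and 2.58 in the other paramysial cells. The part of these fibre reads in the levels below was not tested.

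The first question was whether the members were higher in paramysial than in endomysial cells of the same strain, over the 4 strains with at least 3 cells of both classes. Mest and Grb10 were higher in paramysial cells in 4 of 4 strains, Plagl1 in 3, Dlk1, Peg3 and Cdkn1c in 2, H19, Nespas and Meg3 in 1, and Ndn in 0. The 2 members higher in every strain stand against 3.52% of the 12869 genes that averaged at least 1 scaled count. For both, the lowest paramysial strain also lay above the highest of these 4 endomysial strains, as it did for 1.3% of those genes. Single endomysial clusters lay above the paramysial cells in some strains, as given below. The members had been chosen on this contrast, so nothing is read from their share. The median over the members of the mean log2 difference was 0.27, beside -0.65 over all 12869 genes, on the scale of log2(scaled count + 1).

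**Figure D1:**
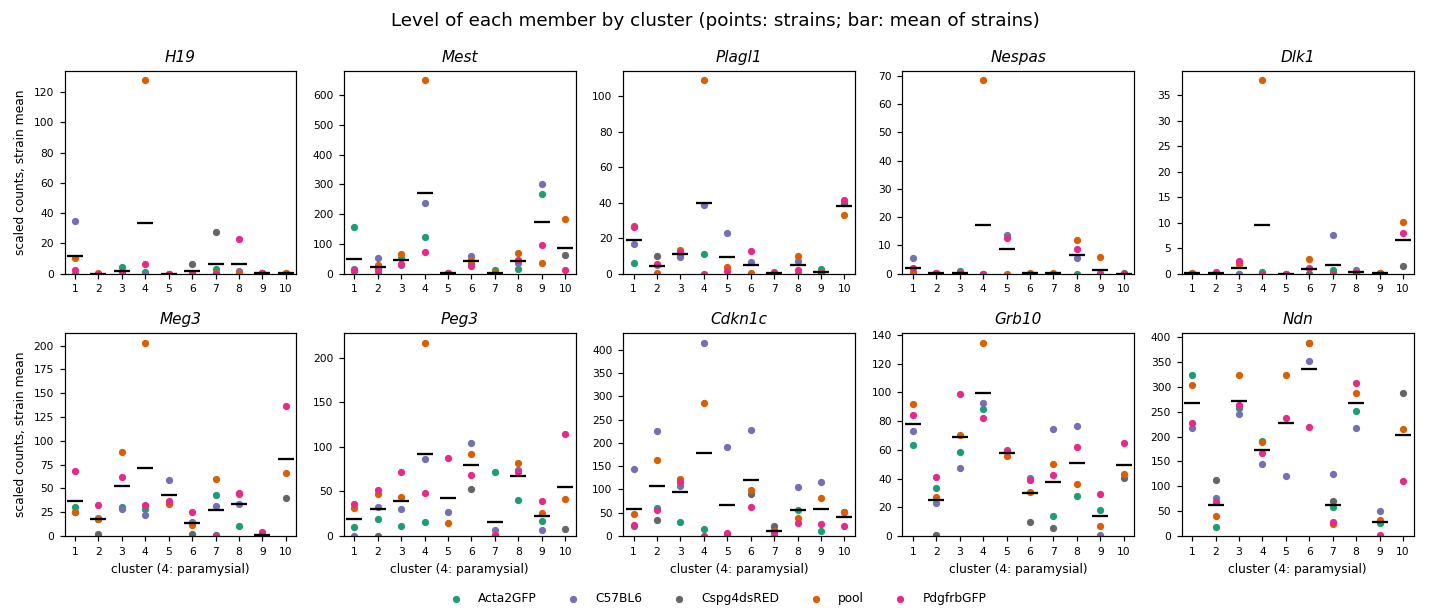
Strain means of the members (vertical axis, scaled counts per cell, linear, one panel per gene) in clusters 1 to 10 (horizontal axis), where each point is a strain with at least 3 cells of the cluster and the bar is the mean of the strains. In cluster 4 the pool lies far above the other strains for H19, Nespas, Dlk1 and Meg3, whereas the 4 strains of Grb10 and of Ndn lie close together.

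Among the protein-coding members, Mest, which encodes an enzyme-like protein of the endoplasmic reticulum and is known for its expression in mesoderm and in growing fat, had the largest difference over strains. Its level in paramysial cells was 121.6 scaled counts in Acta2GFP, 237 in C57BL6, 649 in the pool and 73.6 in PdgfrbGFP. In the same order it was 59.04, 34.2, 52.1 and 31.4 in endomysial cells, so the groups did not overlap. The mean log2 difference was 2.15 ± 1.25 (SD, n = 4 strains). Over the clusters the level was 270 ± 262 (SD, n = 4 strains) in cluster 4, followed by 175 ± 128.1 in the perimysial cluster 9, a gap smaller than either spread.

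Grb10, which encodes an adaptor that restrains insulin and growth factor signalling, was the most even of the members higher in paramysial cells. It had 88.4 scaled counts in Acta2GFP, 92.3 in C57BL6, 134.5 in the pool and 82.2 in PdgfrbGFP, against 50.5, 58.6, 63.5 and 74.7 in endomysial cells. The lowest paramysial strain mean thus stood above the highest endomysial strain mean by a narrow margin, and the log2 difference was 0.66 ± 0.39 (SD, n = 4). Single endomysial clusters were not set apart in PdgfrbGFP, where clusters 1 and 3 had 84.1 and 98.9 and clusters 5, 6 and 8 had 59.1, 38.7 and 62.3. In the other strains every endomysial cluster with a level lay below the paramysial cells of that strain. Over strains, cluster 4 had 99.3 ± 23.8 and cluster 1 had 78.2 ± 12.5 (SD, n = 4 each). In the Cspg4dsRED strain, left out for having 1 paramysial cell, that cell had 0 Grb10 counts among 582367, and 0 counts of Mest.

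Cdkn1c, an inhibitor of cyclin-dependent kinases that holds cells out of the cycle, split the strains. Paramysial cells had 415 scaled counts in C57BL6 and 286 in the pool, but 15.2 in Acta2GFP and 0.58 in PdgfrbGFP, where endomysial cells had 145, 96.1, 35.01 and 63.9 in the same order. The log2 difference therefore ran from -5.36 to 1.56, and its mean of -0.86 was smaller than its SD of 3.26. Per kilobase of exon, the mean of the strains in paramysial cells was 87.9 scaled counts for Cdkn1c, 68.5 for Mest and 46.8 for Ndn, while Meg3 and Dlk1 were lowest at 3.96 and 1.69. Without the 3 cells of C57BL6 it was 49.4 for Cdkn1c, 71.3 for Mest and 49.3 for Ndn, so the first place of Cdkn1c rested on that strain.

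Plagl1 and Peg3 both encode zinc finger proteins. Plagl1 had 11.1 scaled counts in paramysial cells of Acta2GFP, 38.4 in C57BL6, 108.8 in the pool and 0 in PdgfrbGFP. Endomysial cells had 7.23, 9.97, 13.1 and 10.8. The groups overlapped through PdgfrbGFP, whose 4 paramysial cells held no Plagl1 count. Cluster 10, at 38.1 ± 4.69 (SD, n = 3 strains), was close to the 39.6 ± 48.9 (n = 4) of cluster 4, with a smaller spread. Peg3 had 15.8, 86.4, 217 and 48.2 scaled counts in paramysial cells against 37.5, 55.5, 53.8 and 66.6 in endomysial cells, in the same order of strains. It was thus lower in paramysial cells in Acta2GFP and PdgfrbGFP. Its level was 91.8 ± 88.1 (SD, n = 4 strains) in cluster 4 and 79.4 ± 23.3 (n = 4) in the endomysial cluster 6.

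Ndn, which encodes necdin, a growth suppressor best known in neurons, was the one member lower in paramysial cells in 4 of 4 strains. Its level in paramysial cells was 190.5, 145, 189 and 167 scaled counts, and in endomysial cells 265, 251, 328 and 263. The endomysial level was higher in 4 of 4 strains with no overlap, and the log2 difference of paramysial over endomysial was -0.68 ± 0.15 (SD, n = 4), the smallest spread of the members. Of the 12869 genes of this comparison, 17.6% were lower in paramysial cells in 4 of 4 strains. The median log2 difference over the 12869 genes was -0.65, near the value of Ndn. On the soleus plate of the pool, however, 49% of 13194 genes were higher in paramysial cells, while Ndn had 0.585 times the endomysial mean. Whether the decrease of Ndn was that of a typical gene was not tested. Both classes were high beside the 59.05 ± 30.5 of perimysial cells and 61.6 ± 40.2 of mural cells (SD, n = 5 strains each), and the highest cluster was the endomysial cluster 6 at 337 ± 80.1 (n = 4).

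Dlk1 encodes a membrane protein related to Notch ligands that keeps precursor cells, such as those of fat, undifferentiated. Its paramysial level was 37.9 scaled counts in the pool, 0.37 in Acta2GFP and 0 in C57BL6 and PdgfrbGFP, where endomysial cells had 1.55, 0.21, 0.24 and 1.09. Beside endomysial cells, the pool alone stood apart. Over strains the level was 9.57 ± 18.9 (SD, n = 4) in cluster 4 and 6.56 ± 4.47 (n = 3) in cluster 10. The mean of cluster 10 lay above the paramysial levels of Acta2GFP, C57BL6 and PdgfrbGFP.

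Among the RNAs that encode no protein, H19, which holds miR-675 and is abundant in the embryo, had 127.7 scaled counts in paramysial cells of the pool. The other strains had 6.60 in PdgfrbGFP, 0.83 in Acta2GFP and 0 in C57BL6, within or below the range of 2.41 to 7.48 in endomysial cells. Nespas, an antisense RNA of the Gnas region, had 68.4 scaled counts in the pool and 0 in the other 3 strains, against 0.52 to 3.38 in endomysial cells. Meg3, whose locus gives a long RNA and many microRNAs, had 203 scaled counts in the pool, 32.99 in PdgfrbGFP, 28.3 in Acta2GFP and 22.6 in C57BL6, while endomysial cells ran from 28.2 to 58.7 in these strains. In all 3 RNAs the pool was high and the remaining paramysial strains lay within or below the range of endomysial strains. For Meg3 the highest cluster by the mean of strains was cluster 10, at 80.6 ± 50.1 (SD, n = 3), beside 71.7 ± 87.6 (n = 4) in cluster 4, which did not differ beyond their spread.

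The next question was which cells held these reads. On the soleus plate of the pool the 45 paramysial cells can be set beside the endomysial cells of the same plate. The mean level was higher in paramysial cells for 9 of the 10 members, by 144-fold for Dlk1, 24.1-fold for H19, 22-fold for Nespas, 12.1-fold for Mest, 10.9-fold for Plagl1, 4.58-fold for Meg3, 3.74-fold for Peg3, 2.57-fold for Cdkn1c and 2.03-fold for Grb10. Ndn had 0.585 times the endomysial mean. Of 13194 genes that averaged at least 1 scaled count in these cells, 12.6% were more than 2-fold higher in paramysial cells. This is 1 plate, so there is no replicate of the plate and no test, and a mean here can rest on few cells.

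**Figure D2:**
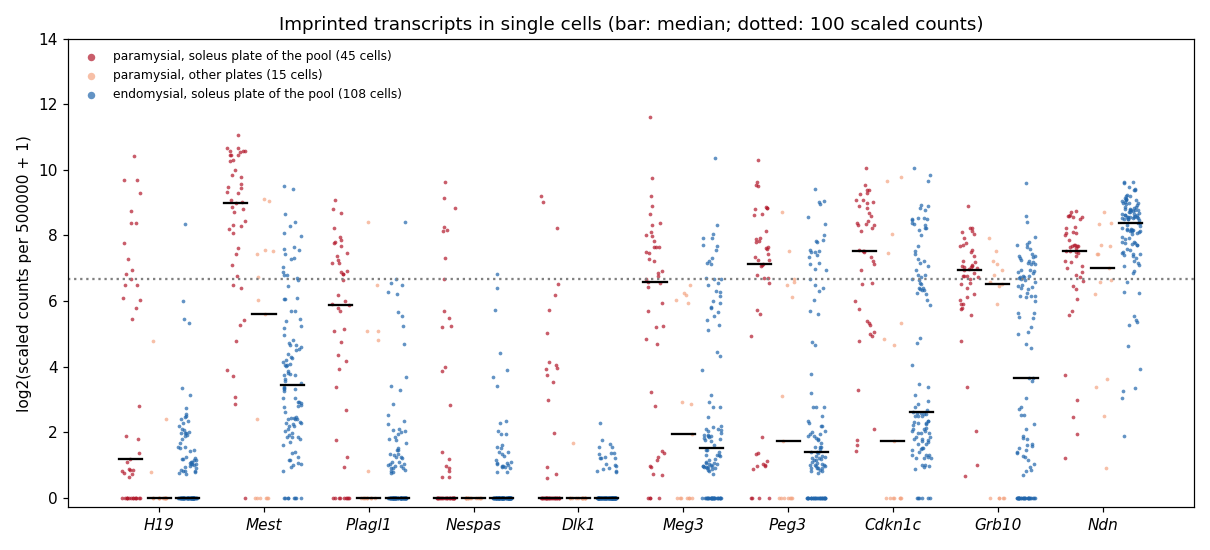
Each point is 1 cell, the vertical axis is log2(scaled counts per 500000 + 1), the horizontal axis gives the member, the bars are medians and the dotted line marks 100 scaled counts. On the soleus plate of the pool, paramysial cells reach 1373 scaled counts of H19 while their median is 1.24, and Ndn is the member whose endomysial cells lie higher.

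A gene is called carried in a cell below when it had 100 scaled counts or more, a level well above the low counts that many cells held. H19 ran from 0 to 1373 scaled counts in the 45 paramysial cells of the soleus plate, with a median of 1.24, and was carried in 11 (24.4%, 95% exact binomial interval 12.9 to 39.5%). Nespas was carried in 8 of the 45 (17.8%, 8.00 to 32.1%), with a highest cell of 784, and Dlk1 in 3 (6.67%, 1.40 to 18.3%), with a highest cell of 589. In the other 15 paramysial cells these 3 were carried in 0 cells, which allows a share of up to 20.0%, and in the endomysial cells of the plate H19 and Nespas were carried in 1 cell each and Dlk1 in 0, which allows up to 2.78%. The cells just inside and just outside the level had 112.6 and 99.998 scaled counts of H19, 100.04 and 51.1 of Nespas and 300.1 and 90.1 of Dlk1. These intervals and limits cover counting of cells only, and reads without molecular identifiers are not independent molecules.

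The more common members were carried at higher shares. Mest was carried in 35 of 45 paramysial cells of the soleus plate (77.8%, 62.9 to 88.8%), 6 of the 15 other paramysial cells and 18 endomysial cells of the plate (16.7%, 10.2 to 25.1%), with medians of 505, 47.2 and 9.80 scaled counts. Plagl1 was carried in 18, 1 and 2 cells and Meg3 in 22, 0 and 15 cells of these groups. Peg3 was carried in 28 of 45, 3 of 15 and 21 endomysial cells, Cdkn1c in 29, 4 and 31, and Grb10 in 28, 6 and 30. Ndn alone was carried by a larger share of the endomysial cells, 95 cells (87.96%) against 34 of 45 (75.6%) and 8 of 15.

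Single cells outside the paramysial class also carried the rare members. H19 was carried in 12 of 1693 such cells (0.709%, 0.367 to 1.23%), with a highest cell of 3228 scaled counts, Nespas in 10 and Dlk1 in 3. Of these 1693 cells, 25 carried at least 1 of the 3 and none carried 2, a share of up to 0.177% allowed by a count of 0. With so few carriers, the count of 0 says little about whether these members go together. Among the 45 paramysial cells of the soleus plate, 17 carried at least 1 of the 3, 4 carried at least 2, and 1 carried all 3. Another cell had 287 scaled counts of Nespas, 514.05 of Dlk1 and 99.998 of H19, and thus missed the count of all 3 members by less than 1 scaled count, while it carried all of the other 9 members. The cell with all 3 had 332 scaled counts of H19, 455 of Nespas and 589 of Dlk1, together with 471 of Meg3 and 609 of Cdkn1c.

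**Figure D3:**
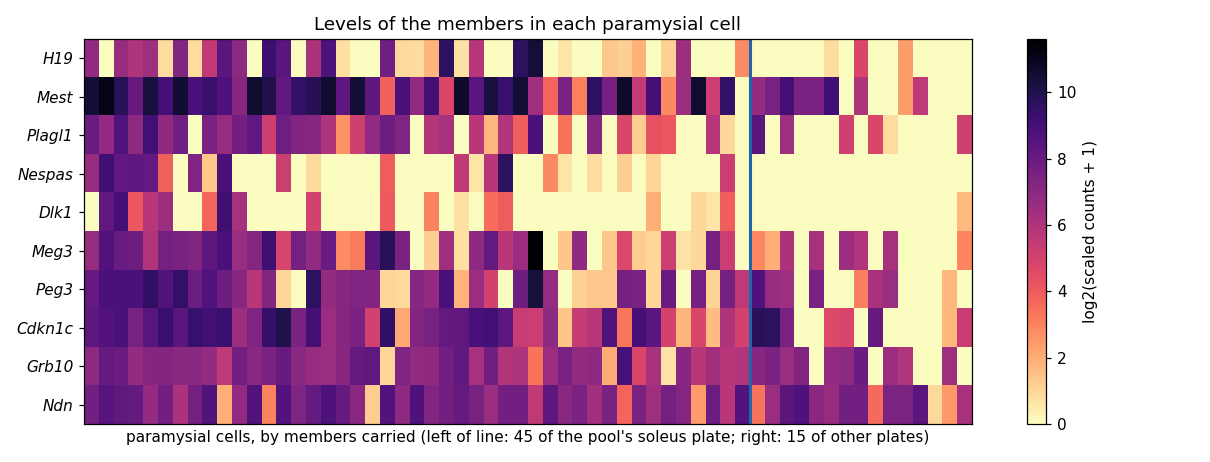
Each column is 1 of the 60 paramysial cells, sorted within each side of the line by the number of members carried, each row is a member, and the color is log2(scaled counts + 1). Nespas and Dlk1 are dark only among the columns left of the line, the 45 cells of the soleus plate of the pool, and the single cell of the pool's gastrocnemius plate is the first column to the right of it.

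The number of members carried was then counted in each cell. The members were chosen by their levels in paramysial cells, so a higher number there was built in. The mean number also follows from the shares of the single members, so it does not show that members go together in the same cells. On the soleus plate the 45 paramysial cells carried 4.80 members on average, with a median of 5 and a range from 1 to 9, and 25 cells (55.6%, 40 to 70.4%) carried 5 or more. The endomysial cells of the plate carried 1.98 on average with a range from 0 to 5, and 1 cell (0.926%, 0.0234 to 5.05%) carried 5 or more. Both intervals cover only the counting of cells on 1 plate and compare no replicates. Of all 1693 cells that were not paramysial, 12 (0.709%) carried 5 or more and none carried 7, whereas 10 paramysial cells of the soleus plate carried 7 to 9. The 15 paramysial cells of other plates carried 1.87 on average. By strain the mean was 4.80 in the pool, 2.67 in C57BL6, 1.5 in Acta2GFP and 1.5 in PdgfrbGFP, and the endomysial cells of these strains carried 1.96, 1.68, 1.58 and 1.74.

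**Figure D4:**
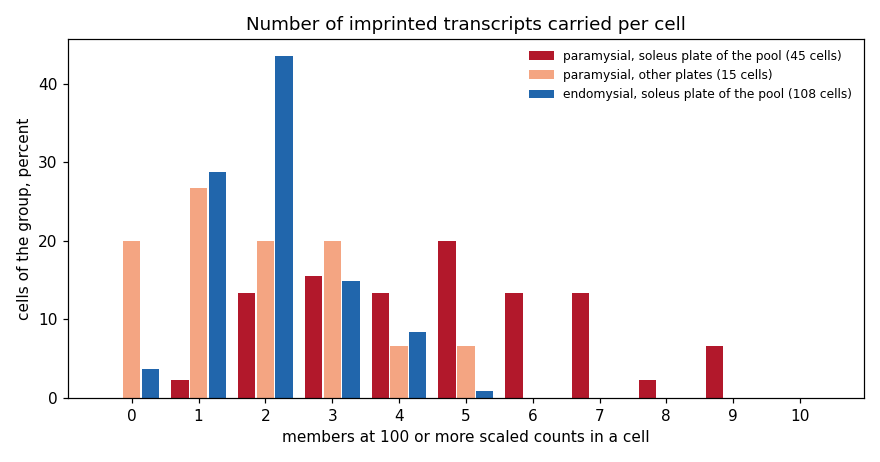
The bars give the percent of cells of each group (vertical axis, from 0) by the number of the 10 members at 100 or more scaled counts (horizontal axis). Paramysial cells of the soleus plate of the pool peak at 5 members and reach 9, and the endomysial cells of that plate peak at 2 and end at 5.

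The single paramysial cell of the pool's gastrocnemius plate carried 5 members: 882 scaled counts of Cdkn1c, 419 of Peg3, 341 of Plagl1, 137.6 of Grb10 and 106.3 of Mest, with 0 of H19, Nespas and Dlk1. The 3 soleus cells of PdgfrbGFP carried 1, 2 and 3 members. These 3 cells had 132608 to 188439 counts, against a median of 665294 in the 45 cells, and they differ from the 45 in strain label and plate. Whether the counts of members go with the muscle was not tested. The muscle, the pooled mice and the plate of the 45 cells cannot be told apart.

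Pairs of members within the 45 cells were described by Spearman correlation of scaled counts. All share a plate and a library preparation, and no p is given. Of 45 pairs, 36 were positive, with a median of 0.20 and a range from -0.13 to 0.61. Pairs of other genes in these cells were not counted, so the 36 are not read as members going together. The highest was Nespas with Dlk1 (0.61), followed by Plagl1 with Meg3 (0.57), Nespas with Cdkn1c (0.50) and H19 with Peg3 (0.40). All 3 cells that carried Dlk1 carried Nespas, which is 37.5% of the 8 Nespas cells, and all 8 Nespas cells carried Cdkn1c and Mest. Of the 18 Plagl1 cells, 14 carried Meg3 (77.8%), which is 63.6% of the 22 Meg3 cells. Of the 11 H19 cells, 9 carried Peg3 (81.8%), which is 32.1% of the 28 Peg3 cells. Among all 45 cells the shares were 17.8% for Nespas, 64.4% for Cdkn1c, 77.8% for Mest, 48.9% for Meg3 and 62.2% for Peg3. The number of members carried had a Spearman correlation of 0.13 with total counts, 0.17 with the number of genes and 0.08 with Postn, and -0.21 with Thbs4.

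A single shallow cell weighed on some of these means. It had 53889 counts, the fewest of the paramysial cells, and the highest levels of H19 (1373), Meg3 (3118) and Peg3 (1271) among the 45. It held 23.4% of the H19, 33.4% of the Meg3 and 13.3% of the Peg3 scaled counts of the plate's paramysial cells, and 33.8% of their Dlk1 came from another single cell.

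Depth was set equal by the expected share of cells with a count after each cell was thinned to 50000 counts, a depth that all 60 paramysial cells reached. Mest would then be seen in 94.5% of the 45 cells of the soleus plate, 56.2% of the other 15 and 60.2% of the endomysial cells of the plate. The share for H19 was 44.3, 9.74 and 12.9%, for Nespas 32.7, 0 and 9.21%, and for Dlk1 28.1, 1.46 and 2.61%. The mean number of members with a count was 6.96, 3.88 and 3.89. Unthinned, H19 had at least 1 count in 31 of 45, 3 of 15 and 52 cells. Low counts of H19 were thus common across the soleus plate, and they also reached 6.34% of its perimysial and 8.40% of its mural cells after thinning, against 0.575% of the endomysial cells of the pool's gastrocnemius plate. The origin of these low counts was not tested.

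Other imprinted genes were counted from a list of 61, of which 58 were in the table and 37 averaged at least 1 scaled count. In paramysial against endomysial cells, 4 of the 37 (Airn, Tssc4, H13 and Copg2) were higher in 4 of 4 strains and 3 (Impact, Ppp1r9a and Inpp5f) were lower in 4 of 4, beside 3.52% and 17.6% of all genes. Within the soleus plate 21 of the 37 were higher in paramysial cells and 11 more than 2-fold, beside 49% and 12.6% of all genes. Copg2 is among the 4 and among the 11, and reads from the bases it shares with Mest cannot be told apart. Igf2, the fetal growth factor next to H19, had 183 scaled counts in paramysial cells of the pool, 19.1 in C57BL6, 1.01 in Acta2GFP and 0 in PdgfrbGFP. It was carried in 17 of the 45 soleus plate cells, in 0 of the other 15 and in 98 of 1693 (5.79%) of the remaining cells, and 7 of the 11 H19 cells carried it.

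Igf2r, the receptor that clears Igf2 and is itself imprinted, was highest in C57BL6 at 184 scaled counts and had 60.3 in the pool. Gnas, which encodes a G protein subunit and overlaps Nespas, was carried in all 60 paramysial cells, at a mean of 648 ± 238 against 590.1 ± 162 in endomysial cells (SD, n = 4 strains). Sgce (101.3 ± 44.9 against 116.6 ± 15.3), Kcnq1ot1 (34.4 ± 28.1 against 32.97 ± 12.6) and Snrpn (15.9 ± 22.1 against 12.96 ± 6.58) differed between the classes by less than the spread of strains. Impact was lower in paramysial cells, at 11.03 ± 11.03 against 27.8 ± 6.37. Rian, downstream of Meg3, was carried in 3 of the 45 cells and all 3 carried Meg3.

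Neighbours of Mest and Peg3 were looked at after their values had been seen. Copg2, which meets Mest end to end on the opposite strand, was carried in 28 of the 45 cells, and all 28 carried Mest. Its Spearman correlation with Mest over these cells was 0.97, and the bases that both genes share were described above. Klf14 (chromosome 6, 30956023 to 30959078), beyond Copg2, was carried in 6 of the 45 cells, all of them Mest cells, in 0 of the other 15 and in 9 of 1693 (0.532%) of the remaining cells. Zim1 (chromosome 7, 6671269 to 6696450), next to Peg3, was carried in 5 of the 45, all of them Peg3 cells, in 0 of the other 15 and in 8 of 1693 (0.473%). Over the 45 cells the Spearman correlation was 0.21 for Klf14 with Mest and 0.43 for Zim1 with Peg3. Most of the 45 cells carried Mest (35) or Peg3 (28), so overlaps of so few cells say little.

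The 5 genes whose profile over the 10 clusters was most like the mean profile of the members, among the 7715 genes that averaged at least 10 scaled counts over paramysial cells, were Hspa12b (Pearson r = 0.96), Rps19bp1 (0.95), Gm13372 (0.92), Ripk1 (0.92) and Supt4a (0.91). They are given as a description over 10 clusters. Of these, Gm13372 was higher in paramysial cells of the soleus plate than in the others (44.3 against 12.8 scaled counts), and Hspa12b was lower there (6.75 against 45.05).

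The last question was whether the members differed between soleus and gastrocnemius in classes that had enough cells of both muscles in the pool and in PdgfrbGFP. Counts were summed per strain and muscle and tested with edgeR's quasi-likelihood test with strain as a block, over 2 strains. No gene was called in endomysial cells (0% of 16337, with 807 at an unadjusted p under 0.05, while DESeq2 called 42 higher and 73 lower in soleus) or in perimysial cells (0% of 11698, with 732, while DESeq2 called 370). Simulated counts took the spread of these sums within a muscle, which counts differences between strains as spread, and held no strain effect. With log2 changes of 4, the test recovered 53 of 200 changed genes in endomysial and 0 of 200 in perimysial cells. With a low spread put in it recovered 197 and 196 of 200. The simulation therefore does not give the power of the blocked test on the real sums.

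In endomysial cells none of the 10 members passed. Meg3 had 127.5 CPM in gastrocnemius and 68.1 in soleus of the pool and 38.1 and 15.7 in PdgfrbGFP, a log2 difference of soleus over gastrocnemius of -1.18 ± 0.26 (SE, edgeR adjusted p = 0.967), lower in soleus in 2 of 2 strains. Dlk1 was also lower in both, at 4.70 and 0.52 CPM in the pool and 0.96 and 0.06 in PdgfrbGFP, on 276, 26, 16 and 1 counts. H19 went in opposite directions, with 1.99 CPM in gastrocnemius and 7.38 in soleus of the pool and 49.8 and 2.83 in PdgfrbGFP. Mest, Ndn and Grb10 differed by 0.18, -0.10 and -0.16 on the log2 scale, with SEs of 0.24, 0.16 and 0.20.

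In perimysial cells 6 members had enough counts to be tested, and H19, Plagl1, Nespas and Dlk1 did not. Mest had 14.4 CPM in gastrocnemius and 81.8 in soleus of the pool and 19.8 and 89.3 in PdgfrbGFP, a log2 difference of 2.13 ± 0.84 (SE, edgeR adjusted p = 0.795), higher in soleus in 2 of 2 strains. Meg3 was lower in soleus in both strains by -3.33 ± 1.30, and so was Ndn by -2.89 ± 0.98 (edgeR adjusted p = 0.795 for each). DESeq2 called Ndn at an adjusted p of 0.0282 and none of the other 5. Each of these sums held 16 to 20 cells. On the soleus plate of the pool, 1 perimysial cell held 57.4% of the Mest scaled counts of that class, and 1 cell held 66.8% of its Ndn.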

How the data were processed

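Per the labels, each sample was 1 cell with a cluster, strain, plate and in part a muscle. The labels' tissue is skeletal muscle, although their extraction text names heart. The authors deposited raw read counts per gene, made from Smart-seq2 reads mapped to GRCm38 with TopHat2 and counted with featureCounts; the use of strand and the annotation release are not given in the sources used here. Duplicate and doublet removal rest on the authors' steps, and no doublet caller was run. The table had 1 column with no matching label, which was not used. Spike-ins took 1.31% of counts and were left out. Each cell had its own library, so no cell barcodes were shared.

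Cells were scaled to 500000 counts (46097 to 1055869 per cell). Symbols came from GENCODE M21 (46005 of 46517 matched). Levels are means over cells per strain with at least 3 cells, then mean ± SD over strains. Intervals are exact Clopper-Pearson at 95%, and a count of 0 allows 3 counts of the total. Muscles were compared with edgeR 4.0.16 (quasi-likelihood, TMM, Benjamini-Hochberg, threshold 0.05) and DESeq2 1.42.0 in R 4.3.3. Strain entered as a block because each strain's 2 sums share a strain label; the methods describe pooling of soleus muscles only, so whether the pool's 2 sums share mice is not known. The fit was tested on simulated data. Strains differ in reporter and animals, and p-values measure only the spread between these sums.

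All 10 members are named. Other genes were named as the 5 most alike in profile, 8 genes of the imprinted list, and markers, and Copg2, Klf14, Zim1 and the genes listed by direction were named after their values were seen. The members and lists were chosen with earlier results of these data known.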

Additional observations from a re-analysis of the deposited data

Results flagged for a closer look

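Of 30 sets of 4 or 5 strain levels looked at, 5 had a strain far from the rest, each time the pool as the highest. Chance flags about 1 in 20 such sets, but the members were chosen by their levels in paramysial cells, 46 of 60 of which are pool cells, so nothing is read from the count. In paramysial cells the pool had 127.7 scaled counts of H19 (next strain 6.60), 68.4 of Nespas (next 0), 37.9 of Dlk1 (next 0.37) and 203 of Meg3 (next 32.99). In perimysial cells it had 1.52 scaled counts of Nespas (next 0.34).

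Peg3 passed the edgeR test between muscles in neither class (adjusted p = 0.967 and 0.971), and the signs of its values were opposite. Its log2 ratio of soleus over gastrocnemius was 0.25 in the pool and 0.92 in PdgfrbGFP in endomysial cells, and -1.54 and -0.18 in perimysial cells. The difference between the classes was not tested.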

How the results depend on the processing

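The count of members higher in paramysial cells in every strain was 2. It was 1 with plates in place of strains and 0 when a single cell sufficed for a strain, which let in the Cspg4dsRED cell with almost no reads of the members. It ranged from 2 to 3 when each strain was left out in turn, and the other alternatives gave 2 or 3. The mean number of members carried per paramysial cell was 4.07, and it was 5.70 at 20 scaled counts, 7.27 at 1 count, 6.19 and 6.99 at 1 count after thinning to 50000 and 200000 counts, and 1.87 without the soleus plate of the pool.

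Between muscles, edgeR called 0 genes in each class, DESeq2 called 42 higher and 73 lower in soleus in endomysial cells (0.704% of genes) and 370 genes in perimysial cells (3.16%, 1 of them a member), and edgeR without a filter called 1 in perimysial cells (0.00508%). Without the strain block, edgeR again called 0 genes in endomysial and 0 in perimysial cells and 0 members. In endomysial cells of cluster 3 alone the log2 difference of H19 was 4.98, of Plagl1 0.37 and of Ndn 0.10, opposite in sign to all endomysial cells, and the cause was not tested. With 1 strain left, a muscle difference is a value with no test. The 15 paramysial cells outside the soleus plate limit every statement across strains, and 3 to 6 cells stand behind 3 of the 4 strain means.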
